A study of Mus musculus with 9 samples.

Results

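A transcript cluster is the unit in which the GeneChip Mouse Transcriptome Assay reports RNA, 1 log2 signal for all probes placed on 1 stretch of transcript. Of the 65956 clusters measured that are not array controls, 33142 (50.2%) have no gene symbol in the platform annotation used here, and these unnamed clusters are described below. The rule that defines them uses the annotation alone and not their signal, though they were chosen with earlier results of these data known. Another 30638 clusters carry 1 symbol and 2176 carry several. Among the unnamed clusters, 33121 have identifiers that begin with TC and then give a chromosome, and 21 have identifiers that begin with TSUnmapped and give none. An unnamed cluster is one that the annotation leaves without a name, which does not mean that it lies outside a gene.

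Much of a mammalian genome is copied into RNA outside the exons of known protein-coding genes, as long non-coding RNA, antisense RNA, transcripts from enhancers and repeats, and extended or unspliced forms of known genes. Many of these RNAs are scarce and tissue-restricted, and short or repetitive ones are hard for array probes to tell apart. Nervous tissue is known for an abundance of such transcripts. No sequence is printed for the clusters because no sequence or coordinate of their probes was used here.

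The 9 arrays came from 9 wild-type FVB mice of 1 litter, of both sexes, each injected in both hindlegs at postnatal day 14 with a tracer based on wheat germ agglutinin, a plant lectin that travels from the muscle along the axon to the MN cell body. Cords were taken 48 h later, and labelled motor neurons (MNs) were cut out by laser capture. Of the MN pools, 3 mice each gave the pool of the extensor digitorum longus (EDL, resistant in spinal muscular atrophy, 1 µl injected), the gastrocnemius (GS, intermediate, 3 µl) and the tibialis anterior (TA, vulnerable, 3 µl). The mice were M11, M14 and M33 for EDL, M13, M30 and M31 for GS, and M0, M1 and M3 for TA, and no source says what the numbers mean, so the TA pool cannot be told apart from a batch that follows its low numbers. The sources also differ in the section thickness (35 µm in the methods and 20 µm in the labels) and in the cord level (lumbar in the methods and cervical in the labels), and the series text speaks of an SMA background.

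The arrays held MN transcripts: Chat, which makes acetylcholine, had 13.45, 13.67 and 13.60 in EDL, 13.38, 13.26 and 13.30 in GS and 13.15, 12.94 and 13.59 in TA (log2 signal). Averaged over the 6 MN markers listed, the log2 signal was 11.75 to 12.09 in EDL, 11.72 to 11.77 in GS and 10.76 to 11.72 in TA, and 4 of the 6 lay above the 95th percentile of the negative controls on all 9 arrays. The 3 oligodendrocyte markers measured, of 4 listed, did so too, at a mean of 13.77 to 13.90 in EDL, 13.90 to 13.97 in GS and 13.72 to 14.12 in TA. None of the 3 astrocyte markers measured (of 4 listed) and none of the 4 microglia markers did so on all arrays; their mean signals were 8.42 to 9.06 in EDL, 8.20 to 8.81 in GS and 8.68 to 9.19 in TA for astrocytes, and 6.93 to 6.98 in EDL, 6.94 to 7.05 in GS and 6.60 to 7.07 in TA for microglia. Of 4 inhibitory interneuron markers 1 did so, with a list mean of 8.08 to 8.26 in EDL, 8.50 to 9.44 in GS and 8.14 to 8.43 in TA. The astrocyte marker Gfap missed only on the array of GS M31 (9.68, against a percentile of 10.065). In the other mice Gfap had 10.73 to 12.46 and lay above the percentile. Xist, the RNA of the inactive X chromosome, had 6.03 in EDL M11 and 13.22 to 13.46 in the other 8 mice, and Eif2s3y, a Y-linked translation factor gene, had 8.40 in EDL M11 and 5.31 to 5.41 in the others, so that M11 was the only mouse with Y-linked signal. The part of these other transcripts in the results below was not tested.

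Most unnamed clusters were dim, but they were over-represented among the brightest clusters of the array. The mean log2 signal over the 9 mice had a median of 5.79 over unnamed clusters and 6.5 over one-symbol clusters, and ran from 3.08 to 19.31 in unnamed clusters. Over 10, unnamed clusters were 1668 of 6010 clusters of all classes (27.8%), less than their share of the array. Over 14 they were 537 of 1180 (45.5%), over 16 they were 283 of 431 (65.7%), and over 18 they were 64 of 84 (76.2%). As a share of their own class, 0.854% of unnamed and 0.441% of one-symbol clusters lay over 16. These counts are of identifiers, some of which report the same signal. Over 16, 1 set of 26 unnamed clusters (mean 16.81) and 1 of 15 (mean 16.66) each had equal values in all 9 mice. Signals of different clusters come from different probes, except in such sets, so these levels are array signals and not amounts of RNA per length.

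**Figure D1:**
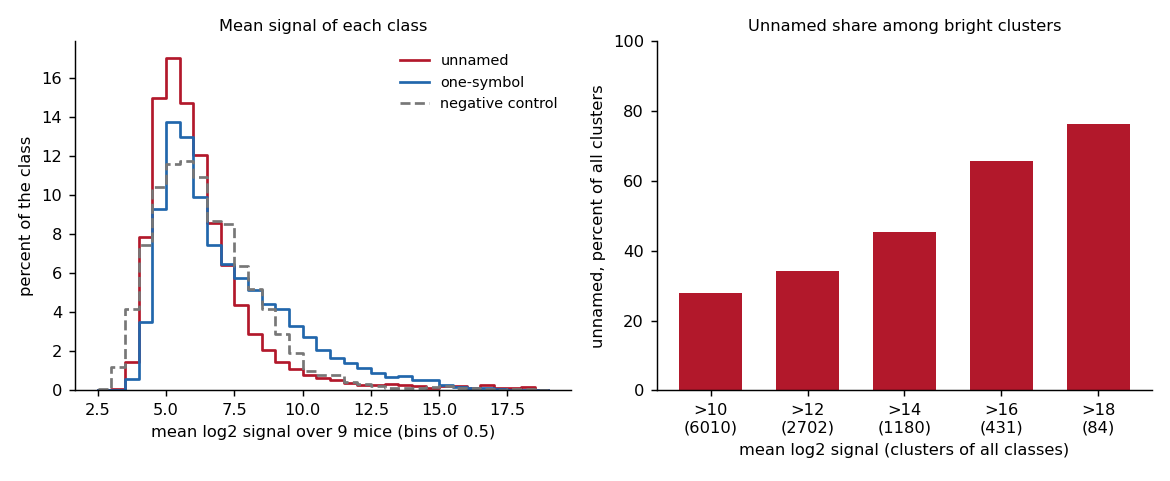
Left, the percent of each class (y axis) in bins of mean log2 signal over 9 mice (x axis) for unnamed clusters, one-symbol clusters and negative control probe sets. Right, unnamed clusters as a percent of all clusters above 5 signal levels, with the number of clusters of all classes in parentheses; the share rises to 76.2% over 18.

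The brightest unnamed cluster, TC0900000003.mm.1 on chromosome 9, had 19.28, 19.39 and 19.23 in EDL, 19.03, 19.21 and 19.49 in GS and 19.40, 19.51 and 19.26 in TA (log2 signal). TC0200004196.mm.1 on chromosome 2 was as bright, at 19.31, 19.32 and 19.29 in EDL, 19.06, 19.23 and 19.38 in GS and 19.41, 19.51 and 19.22 in TA. The pools overlapped for both, and the EDL minus TA differences of -0.10 ± 0.12 and -0.07 ± 0.10 log2 (SE) did not pass the limma test (adjusted p = 0.688 and 0.717).

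Against the negative control probe sets, few unnamed clusters stood out. These are 5222 sets marked as negative in their identifiers. What they match is not stated in the sources; on related arrays of this maker such sets lie in introns of widely expressed genes, which are present in unspliced RNA and absent from spliced mRNA, whereas positive control sets lie in exons. On each array, the share of unnamed clusters above the 95th percentile of those sets was 5.32, 5.597 and 5.597% in EDL, 5.17, 5.05 and 5.18% in GS and 4.06, 4.15 and 5.08% in TA. The same shares of one-symbol clusters were 15.2, 16.1 and 15.9% in EDL, 14.4, 13.9 and 12.97% in GS and 7.99, 7.73 and 12.7% in TA. A share near 5% is that of the negative controls themselves, and between 58.3 and 64.2% of unnamed clusters lay below the negative control median of their array. EDL lay above TA without overlap in the share of unnamed clusters (by 1.07 percentage points, and by 0.426 without TA M0 and M1), with an exact two-sided permutation p = 0.1, the smallest that 3 against 3 mice allow. The percentile itself was higher in TA (10.86, 11.002 and 10.12) than in EDL (9.74, 9.62 and 9.68) and GS (9.85, 9.94 and 10.06), and the share depends on it.

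Unnamed clusters varied more between mice of the same pool than one-symbol clusters did. The median SD within a pool was 0.101 in EDL, 0.108 in GS and 0.169 in TA for unnamed clusters, and 0.064, 0.066 and 0.127 in the same pools for one-symbol clusters (log2, n = 3 mice each). In clusters of mean signal 8 to 10 it was 0.157 in EDL, 0.183 in GS and 0.380 in TA for unnamed clusters, and 0.075, 0.077 and 0.200 for one-symbol clusters. TA had the widest spread in both classes.

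Some unnamed clusters are not separate measurements. In 207 sets of clusters, which hold 826 unnamed clusters (2.49%), all 9 values were equal between members to the last digit given. The 14 largest sets, of 10 or more unnamed clusters, hold 299 clusters, and 11 of them are spread over 8 or more chromosomes. The largest is a set of 63 clusters on 18 chromosomes, with TC0100000118.mm.1 among them, at 7.31, 6.64 and 6.56 in EDL, 6.88, 6.91 and 7.61 in GS and 7.32, 7.93 and 8.42 in TA. Its GS and TA values overlap, and its EDL minus TA difference of -1.05 log2 did not pass the test (adjusted p = 0.123). Of the 14 sets, 10 had a mean signal between 6 and 8 and 3 had one over 14. The brightest is a set of 26 clusters on 12 chromosomes, which includes TC0100000722.mm.1, with 16.57, 16.58 and 16.64 in EDL, 16.61, 16.78 and 17.07 in GS and 16.77, 17.29 and 16.93 in TA. All of its TA values lay above all of its EDL values, by a mean of 0.40 log2 that did not pass the test (adjusted p = 0.18).

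Chromosomes Y and 10 held most of the sets confined to 1 chromosome: 40 sets with 114 unnamed clusters on Y, and 31 sets with 100 unnamed clusters on chromosome 10. In 14 sets the unnamed clusters, 20 in all, shared their values with a named cluster. The unnamed TC1200000429.mm.1 had the same 9 values as 48 clusters whose symbols are small nuclear RNA genes in the gene table, and TC1200000452.mm.1 had the same values as 6 clusters that include Rnu1a1, a U1 small nuclear RNA gene of the spliceosome. TC0200000168.mm.1 matched 5 clusters of the Mir466b microRNA family, and TC0200000193.mm.1 matched Mir669a-1. Equal values show that the same signal is reported under several identifiers, so counts of clusters exceed counts of independent signals.

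Limma called 3 of the 207 sets between EDL and TA at an adjusted p under 0.05, 2 higher and 1 lower in EDL, beside 2.86% higher and 2.22% lower of all clusters. A set of 4 unnamed clusters on 4 chromosomes that includes TC0300000073.mm.1 had 12.92, 12.38 and 12.52 in EDL, 13.07, 13.20 and 12.91 in GS and 13.96, 14.29 and 13.38 in TA, and fell by 1.27 log2 in EDL against TA (adjusted p = 0.033). TC1100001665.mm.1 and its twin Gm23971, a small nuclear RNA gene in the gene table, had 8.62, 8.87 and 8.48 in EDL, 8.70, 8.76 and 8.94 in GS and 7.03, 7.42 and 7.66 in TA, and rose by 1.28 log2 in EDL against TA (adjusted p = 0.0155). TC0900001926.mm.1 and its twin Gm3699, a pseudogene, had 14.09, 14.05 and 14.39 in EDL, 14.14, 14.08 and 13.76 in GS and 12.40, 11.76 and 13.26 in TA, and rose by 1.70 log2 (adjusted p = 0.0391). These were named after their values were seen.

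Across the pools, the unnamed clusters as a class were lowest in EDL and highest in TA. Their median log2 signal was 5.75, 5.70 and 5.73 in EDL, 5.76, 5.76 and 5.80 in GS and 5.87, 5.87 and 5.77 in TA. Every EDL mouse lay below every GS and TA mouse, while GS M31 lay above TA M3. The difference was -0.113 log2 for EDL minus TA, -0.065 for GS minus TA and -0.048 for EDL minus GS (exact permutation p = 0.1, 0.2 and 0.1). The median of one-symbol clusters was 6.49, 6.50 and 6.50 in EDL, 6.49, 6.48 and 6.55 in GS and 6.52, 6.50 and 6.48 in TA, with overlapping pools and an EDL minus TA difference of -0.001. The median of the negative controls differed in the same direction as that of the unnamed clusters and by more, at 6.12, 5.98 and 6.01 in EDL, 6.12, 6.18 and 6.13 in GS and 6.42, 6.48 and 6.27 in TA. With each array centred on that median, the class difference turned, to 0.239 log2 for EDL minus TA (exact permutation p = 0.1). Centred on the median of all clusters it was -0.029, after quantile normalization -0.044, and without TA M0 and M1 also -0.044. In such bulk captures, fewer cells of a type and less RNA per cell cannot be told apart.

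Set against one-symbol clusters of like mean signal on the same array, which takes out any shift of the whole array, unnamed clusters lay on the lower side in EDL and mostly on the higher side in TA. Among clusters of mean signal 8 to 10 (2468 unnamed, 5218 one-symbol), the unnamed median minus the one-symbol median was -0.379, -0.413 and -0.395 log2 in EDL, -0.317, -0.245 and -0.196 in GS and 0.199, 0.427 and -0.064 in TA. No pool overlapped another there, with means of -0.396 ± 0.017, -0.253 ± 0.060 and 0.187 ± 0.245 (SD, n = 3 mice each) and a difference of -0.583 between EDL and TA. In the same bin the one-symbol median fell slightly in TA M0 and M1, at 8.75 and 8.74 against 8.89 in M3 and 8.91 to 8.93 in EDL, while the unnamed median was 8.53, 8.50 and 8.53 in EDL, 8.57, 8.65 and 8.70 in GS and 8.95, 9.16 and 8.83 in TA. The positive control median was also lowest on the arrays of TA M0 and M1. It was 10.82, 10.99 and 10.93 in EDL, 10.81, 10.78 and 10.71 in GS and 9.99, 10.12 and 10.72 in TA. The part of these unlike arrays in the gap was not tested.

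The same order held at lower signal with a smaller step. The gap at mean signal 7 to 8 was -0.173, -0.255 and -0.237 in EDL, -0.191, -0.117 and -0.031 in GS and 0.150, 0.340 and 0.057 in TA, and at 6 to 7 it was -0.078, -0.125 and -0.111 in EDL, -0.067, -0.042 and -0.050 in GS and 0.096, 0.141 and 0.017 in TA. EDL and GS overlapped at 7 to 8, while TA lay apart in both bins. EDL minus TA came to -0.404 and -0.190 log2 there, and to -0.063 at 5 to 6. Below a mean of 5 the EDL and TA mice overlapped, with differences of -0.017 at 4 to 5 and 0.005 under 4. At 10 and over, unnamed clusters lay above one-symbol clusters in every mouse, by 0.754, 0.677 and 0.713 in EDL, 0.749, 0.795 and 1.068 in GS and 1.221, 1.376 and 0.997 in TA. Over the 21 comparisons (7 bins, 3 pairs of pools) no exact p could go below 0.1, and no value adjusted by Benjamini-Hochberg was below 0.191.

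Negative controls of like mean signal also stood higher against one-symbol clusters in TA than in EDL, without overlap in any bin. At 8 to 10, their median minus the one-symbol median was -0.319, -0.502 and -0.464 log2 in EDL, -0.304, -0.152 and -0.128 in GS and 0.50, 0.693 and -0.086 in TA. The unnamed minus negative control gap, -0.060, 0.089 and 0.069 in EDL, -0.013, -0.093 and -0.069 in GS and -0.301, -0.267 and 0.022 in TA, overlapped between all pairs of pools in that bin, and EDL and TA overlapped at 7 to 8 too (EDL minus TA 0.063). In the other bins the gap was higher in EDL than in TA without overlap, by 0.040 log2 under 4, 0.137 at 4 to 5, 0.167 at 5 to 6, 0.135 at 6 to 7 and 0.786 at 10 and over (exact permutation p = 0.1 each, adjusted p = 0.21 over 21 comparisons). At 10 and over it was 1.345, 1.420 and 1.462 in EDL, 1.085, 1.172 and 1.205 in GS and 0.234, 0.489 and 1.147 in TA. The unnamed medians in that bin were not higher in EDL (12.402, 12.354 and 12.405) than in TA (12.458, 12.689 and 12.579). The negative control medians were lower in EDL (11.056, 10.934 and 10.944) than in TA (12.224, 12.201 and 11.433), and the larger gap in EDL came from them. Among one-symbol clusters of mean signal 8 to 10, the 95 small RNA clusters were also higher in TA (9.13, 9.18 and 8.93) than in EDL (8.80, 8.74 and 8.78). The 82 pseudogenes in that bin were lower in TA (8.46, 8.35 and 8.83) than in EDL (9.12, 9.17 and 9.19). The 944 clusters with placeholder symbols, such as Gm and digits, were also lower in TA (8.658, 8.698 and 8.828) than in EDL (8.831, 8.893 and 8.837). So were the 4095 with regular gene symbols, at 8.774, 8.745 and 8.905 in TA and 8.919, 8.909 and 8.936 in EDL. The part of the higher negative controls in TA was not tested.

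**Figure D2:**
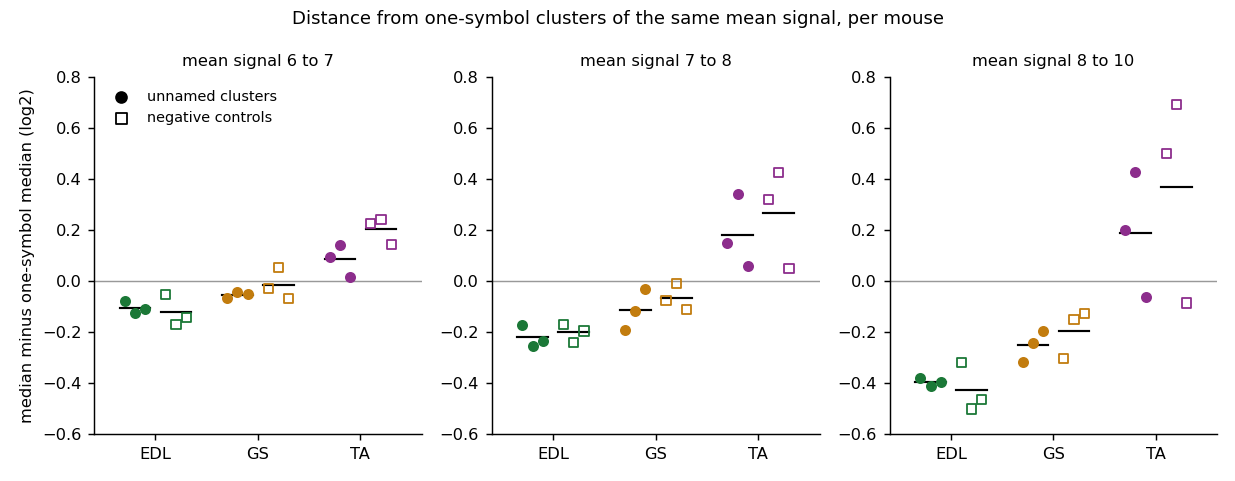
Median log2 signal of unnamed clusters (filled circles) and of negative control probe sets (open squares) minus the median of one-symbol clusters in the same bin of mean signal, for each of 3 mice per pool (x axis, EDL, GS and TA), with bars at pool means. At mean signal 8 to 10 the unnamed clusters average -0.396 in EDL, -0.253 in GS and 0.187 in TA, and the negative controls -0.428 in EDL, -0.195 in GS and 0.369 in TA.

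The limma fit over all 65956 clusters called 312 unnamed clusters higher in EDL than in TA (0.941%, against 2.86% of all clusters) and 1127 lower (3.4%, against 2.22% of all clusters), at an adjusted p under 0.05. One-symbol clusters as a whole went the other way, with 1458 higher (4.76%) and 298 lower (0.973%). Unnamed clusters thus made up 16.6% of all calls higher in EDL and 76.8% of all calls lower in EDL. Within the class, 78.3% of the 1439 called clusters were lower in EDL, and within one-symbol clusters 17.0% of 1756 were. At an unadjusted p under 0.05 the fit gave 1148 unnamed clusters higher (3.46%, against 9.19% of all clusters) and 6521 lower (19.7%, against 13.7% of all clusters). Some one-symbol clusters leaned the same way: 5.55% of 847 small RNA clusters were higher and 17.9% lower, and 0.714 and 5.42% of 1401 chemoreceptor clusters. Those with regular symbols (15.1% higher and 6.84% lower), placeholder symbols (16.1 and 8.58%) and pseudogene symbols (31.3 and 2.92%) leaned the other way. In a fit that also held the controls, added after the data were seen, 2.07% of negative control sets were higher and 17.8% lower in EDL at that level, beside 3.34% and 19.2% of unnamed clusters, 14.7% and 7.22% of one-symbol clusters, and 28.0% and 7.33% of positive control sets.

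The split by direction depends on the scaling of the arrays. With the arrays centred on the median of all clusters, 71.8% of the called unnamed clusters were lower in EDL, and after quantile normalization 71.3%. Centred on the negative control median, it was 10.5%, with 13641 higher and 1608 lower. Single mice were decisive too: without TA M3 the calls rose to 801 higher and 4198 lower, without TA M0 and M1 they came to 174 and 313, and without EDL M33, the mouse whose loss cost most, to 23 and 62.

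Calls were rare among dim unnamed clusters and common among bright ones, as they were among one-symbol clusters. None of 496 unnamed clusters under a mean of 4 was called, and 3 higher (0.0396%) and 23 lower (0.304%) of 7572 at 4 to 5. For one-symbol clusters it was none of 191 under 4, and 2 higher (0.051%) and 9 lower (0.23%) of 3919 at 4 to 5. The share of unnamed clusters called lower in EDL was 0.884% at 5 to 6, 3.35% at 6 to 7, 8.05% at 7 to 8, 12.7% at 8 to 10 and 10.9% at 10 and over. The share called higher was 0.2, 0.541, 1.29, 3.44 and 7.19% in the same bins. One-symbol clusters had the opposite balance in each of these bins, at 10 and over with 17.7% higher and 3.09% lower. The called differences ran from 0.17 to 3.79 log2 (median 0.99) for those lower in EDL, and from 0.19 to 2.40 (median 0.86) for those higher.

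**Figure D3:**
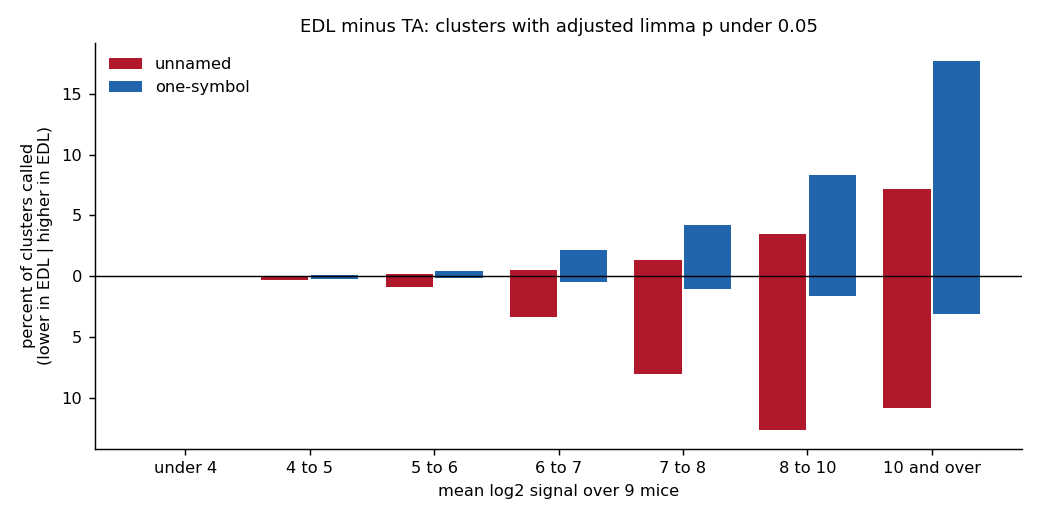
Percent of clusters called between EDL and TA by limma at an adjusted p under 0.05 (y axis; higher in EDL above the line, lower in EDL below it) in bins of mean log2 signal (x axis), for unnamed and one-symbol clusters. At 8 to 10, 3.44% of unnamed clusters were higher and 12.7% lower in EDL.

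Of the clusters higher in EDL, TC1600001955.mm.1 on chromosome 16 was called against TA in GS as well. It had 8.40, 8.94 and 8.66 in EDL, 8.28, 8.41 and 8.32 in GS and 6.69, 5.94 and 6.48 in TA (log2 signal). EDL and GS lay close together, and all TA mice lay well below both, M3 included. The EDL minus TA difference was 2.30 ± 0.20 (SE, adjusted p = 0.00768), and GS minus TA was 1.97 ± 0.20 (adjusted p = 0.0307). The EDL minus TA call was lost in 1 of 18 alternatives, the one that took the spread from EDL and TA alone (adjusted p = 0.0631). The GS minus TA call was lost in 9 of 18 (adjusted p up to 0.179), among them leaving out any one EDL or GS mouse.

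TC0100002972.mm.1 on chromosome 1 had the largest rise in EDL among unnamed clusters past the adjusted test without overlap of the pools, with 12.86, 12.96 and 13.08 in EDL, 12.68, 12.60 and 12.33 in GS and 9.99, 9.83 and 11.89 in TA. M3 lay nearer to the GS mice than to the other TA mice. The difference was 2.40 ± 0.50 (SE, adjusted p = 0.0417), and without TA M0 and M1 it was 1.08 (adjusted p = 0.0511). The call was lost in 11 of 19 alternatives, and of the single mice only leaving out TA M3 kept it. TC1700002012.mm.1 on chromosome 17 had the largest rise in GS against TA by the same choice, with 11.56, 11.34 and 11.91 in EDL, 11.60, 11.38 and 11.34 in GS and 8.95, 9.19 and 10.20 in TA, a GS minus TA difference of 1.99 ± 0.31 (SE, adjusted p = 0.0497). It too had M3 highest among the TA mice, and the GS minus TA call was lost in 12 of 19 alternatives. TC1700002012.mm.1 was also called by limma in EDL against TA (2.16 ± 0.31, SE, adjusted p = 0.0192). The alternatives for that call are not given.

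Among those lower in EDL, TC1500001767.mm.1 on chromosome 15 had the largest difference chosen in that way, with 7.64, 6.79 and 6.99 in EDL, 7.18, 7.37 and 8.18 in GS and 12.32, 11.45 and 9.01 in TA. EDL and GS overlapped, and M3 lay between them and the other TA mice. EDL minus TA was -3.79 ± 0.79 (SE, adjusted p = 0.0422), and without TA M0 and M1 it was -1.87 (adjusted p = 0.144). This call was lost in 11 of 18 alternatives. TC0400003902.mm.1 on chromosome 4 had 8.17, 7.20 and 7.77 in EDL, 8.44, 8.70 and 8.74 in GS and 11.21, 11.74 and 10.26 in TA, 3 levels that did not overlap. EDL minus TA was -3.36 ± 0.39 (SE, adjusted p = 0.0117) and GS minus TA was -2.45 ± 0.39 (adjusted p = 0.0498). Its EDL minus TA call was lost in 4 of 18 alternatives, among them without EDL M14, without EDL M33 and without TA M0 and M1 (-2.55, adjusted p = 0.0508). Its GS minus TA call was lost in 13 of 18 and, of the single mice, kept only without TA M3. TC0300003118.mm.1 on chromosome 3 had 7.48, 6.45 and 7.40 in EDL, 7.21, 7.63 and 6.76 in GS and 10.30, 9.98 and 9.12 in TA, so that TA stood alone. GS minus TA was -2.60 ± 0.40 (SE, adjusted p = 0.0481), a call lost in 13 of 18 alternatives and, of the single mice, kept only without TA M3. TC0300003118.mm.1 was also called by limma in EDL against TA (-2.69 ± 0.40, SE, adjusted p = 0.0195). The alternatives for that call are not given.

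M3 was the TA mouse nearest to EDL in most calls, although it lay outside the range of the EDL mice in all of them. This held for 792 of the 1127 clusters called lower in EDL (70.3%) and for 240 of the 312 called higher (76.9%). These clusters were chosen by the same contrast, so the counts are a description.

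**Figure D4:**
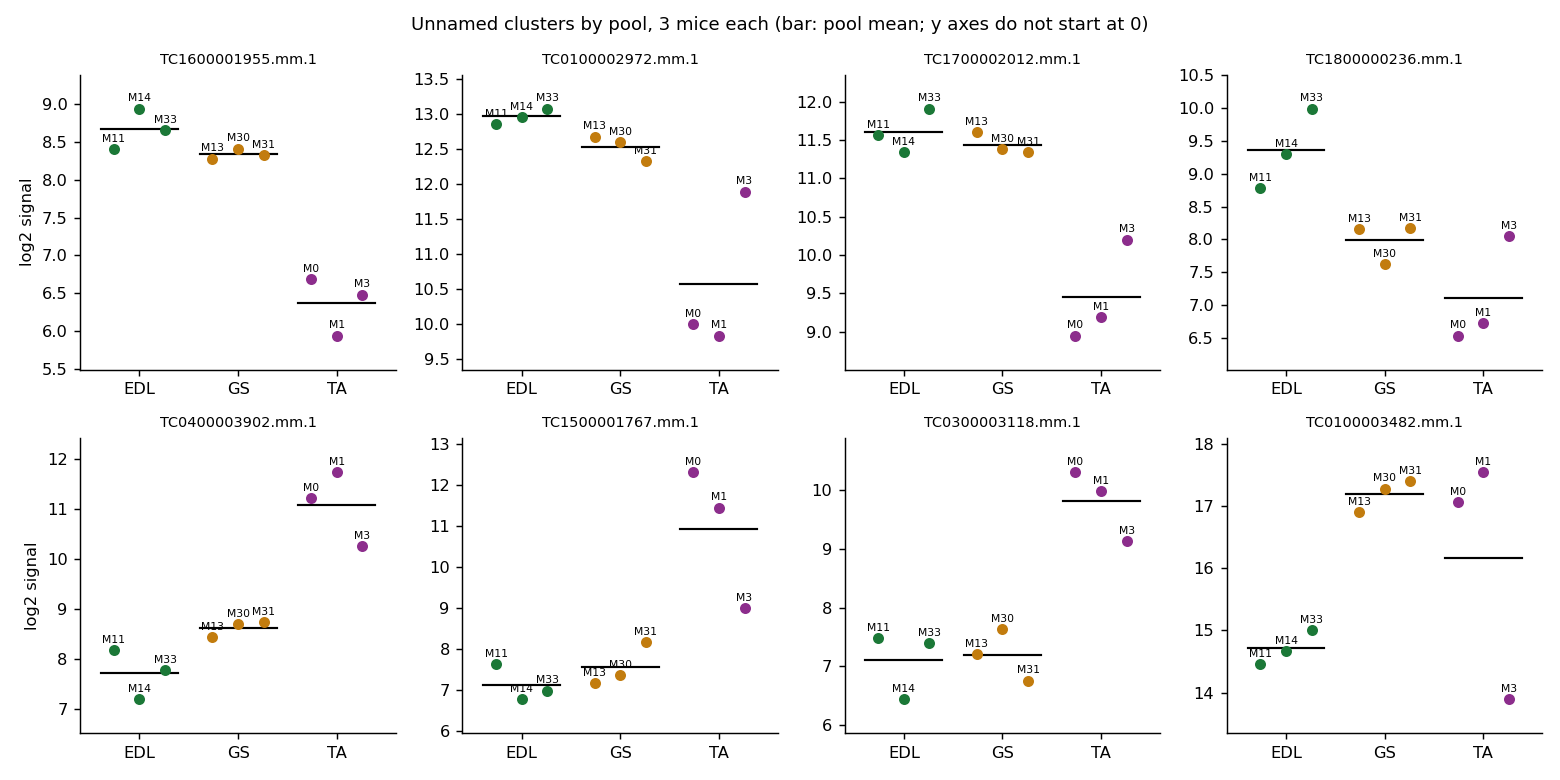
Log2 signal (y axis, not starting at 0) of 8 unnamed clusters in each mouse of the EDL, GS and TA pools (points, labelled by mouse), with bars at pool means. TC1600001955.mm.1 averages 8.67 in EDL, 8.34 in GS and 6.37 in TA; TC0100003482.mm.1 has M3 at 13.90, apart from the other TA mice.

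Between GS and TA, limma called 55 unnamed clusters higher in GS (0.166%, against 0.385% of all clusters) and 120 lower (0.362%, against 0.249% of all clusters). One-symbol clusters gave 185 higher and 44 lower. Of the unnamed calls 68.6% were lower in GS, and of the one-symbol calls 19.2%. With arrays centred on the negative controls the direction turned, to 1931 unnamed clusters higher and 460 lower in GS. Over all clusters that scaling gave 6061 higher and 554 lower. These comparisons share the TA mice with the one above. The counts fell to at most 3 higher and 1 lower on leaving out any one EDL or GS mouse, and came to 638 and 2519 without TA M3.

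Between EDL and GS, limma called no cluster of any class. At an unadjusted p under 0.05, 276 unnamed clusters were higher in EDL (0.833%, against 1.51% of all clusters) and 932 lower (2.81%, against 2.16% of all clusters). None was called after adjustment by the unmoderated test, by limma with a trended robust prior or with array weights; without GS M13, 13 clusters were called, all unnamed and all lower in EDL. TC1800000236.mm.1 on chromosome 18 had 8.78, 9.30 and 9.99 in EDL, 8.16, 7.63 and 8.17 in GS and 6.54, 6.73 and 8.05 in TA, the largest step, among clusters past the unadjusted threshold without overlap, of those higher in EDL than in GS (1.37 ± 0.45, SE, adjusted p = 1). Its EDL minus TA difference of 2.25 ± 0.45 passed (adjusted p = 0.0392), while M3 lay among the GS mice. TC0300003010.mm.1 on chromosome 3 had 7.11, 8.22 and 8.27 in EDL, 6.93, 6.49 and 7.04 in GS and 6.23, 5.78 and 6.92 in TA, and an EDL minus GS difference of 1.05 ± 0.39 (SE, adjusted p = 1).

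Among the same clusters, the largest steps in the other direction followed a division of mice that is not that of the pools. TC0100003482.mm.1 on chromosome 1 had 14.46, 14.67 and 15.01 in EDL, 16.90, 17.28 and 17.40 in GS and 17.07, 17.55 and 13.90 in TA. The 3 GS mice and TA M0 and M1 were high, and the 3 EDL mice and TA M3 low, with 1.88 log2 between the lowest high mouse and the highest low one. TC0400001745.mm.1 on chromosome 4 had 6.31, 7.22 and 6.57 in EDL, 9.11, 9.10 and 10.26 in GS and 9.91, 11.24 and 6.72 in TA, with the same mice high and a distance of 1.88. EDL minus GS was -2.48 ± 0.86 and -2.79 ± 1.05 for these clusters (SE, adjusted p = 1 for both).

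A search made after these values were seen found 6 clusters in which those 5 mice exceeded the other 4 by over 0.8 log2, all of them unnamed, and none in which they were lower by that much. The other members were TC0400001746.mm.1 on chromosome 4 and TC0900002348.mm.1 on chromosome 9, with equal values of 16.19, 16.13 and 16.65 in EDL, 18.11, 18.30 and 18.34 in GS and 18.23, 18.41 and 15.46 in TA, together with TC1300001428.mm.1 on chromosome 13 and TC0800002605.mm.1 on chromosome 8. TC1300001428.mm.1 had nearly the same levels as that pair, with 16.28, 16.25 and 16.71 in EDL, 18.14, 18.38 and 18.40 in GS and 18.27, 18.45 and 15.61 in TA. TC0800002605.mm.1 had 15.19, 15.25 and 15.69 in EDL, 17.05, 17.51 and 17.43 in GS and 17.25, 17.65 and 14.75 in TA. No label or file gives a batch that divides the mice in this way, so its part was not tested.

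The study's trending analysis asks for a difference between EDL and TA at an unadjusted p under 0.05, with the GS mean in between. By these criteria 973 unnamed clusters stepped down EDL, GS, TA (2.94%, against 8.16% of all clusters) and 5748 stepped up (17.3%, against 11.8% of all clusters). One-symbol clusters gave 4126 (13.5%) and 1902 (6.21%). The direction turned with the scaling here too, to 14246 stepping down and 1661 stepping up when arrays were centred on the negative controls. Over all clusters, 37173 stepped down and 1892 stepped up with that scaling.

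The widest spread within a pool was in TA. TC0M00000014.mm.1, on the mitochondrial genome, had 15.77, 15.88 and 16.44 in EDL, 16.50, 15.76 and 16.82 in GS and 10.78, 12.20 and 16.17 in TA, so that M3 lay among the EDL and GS mice and M0 and M1 far below (EDL minus TA 2.98 ± 1.22, SE, adjusted p = 0.201). Of 19 unnamed mitochondrial clusters, 12 had M0 and M1 below the other 7 mice. The same count over all clusters is not given here, so 12 of 19 is not shown to be particular to these clusters. Between EDL and TA, limma called none of the 19. At an unadjusted p under 0.05 there were 3, where 9.19% of all clusters were higher and 13.7% lower in EDL. TC1000000963.mm.1 on chromosome 10 had 8.06, 7.73 and 7.47 in EDL, 7.25, 7.98 and 7.37 in GS and 10.59, 5.30 and 9.32 in TA, with TA mice on both sides of all others (EDL minus TA -0.65 ± 1.19, SE, adjusted p = 0.793).

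The 21 unnamed TSUnmapped clusters were mostly dim and level. Of these, 18 had a mean between 4.1 and 6.4, and 3 were over 14. The brightest, TSUnmapped00000096.mm.1, had 18.33, 18.58 and 18.51 in EDL, 17.84, 18.39 and 18.61 in GS and 18.58, 18.60 and 18.40 in TA, and TSUnmapped00000095.mm.1 had 16.30, 16.85 and 16.79 in EDL, 16.27, 16.30 and 16.98 in GS and 16.95, 16.74 and 16.88 in TA. Pools overlapped for both. TSUnmapped00000134.mm.1 had 14.67, 15.06 and 14.76 in EDL, 14.61, 14.85 and 15.04 in GS and 13.58, 13.88 and 14.76 in TA, again with M3 among the EDL and GS mice, and an EDL minus TA difference of 0.75 ± 0.29 (SE, adjusted p = 0.18). It was the one of the 21 with an unadjusted limma p under 0.05 between EDL and TA, and after adjustment limma called none. TSUnmapped00000051.mm.1 had a single high value, 7.19 in GS M31, against 4.98 to 5.52 in the other 8 mice. TSUnmapped00000028.mm.1 had 5.34, 5.19 and 5.04 in EDL, 4.88, 5.01 and 5.02 in GS and 5.06, 5.22 and 5.07 in TA, an EDL minus GS difference of 0.22 ± 0.09 that passed only before adjustment (SE, adjusted p = 1).

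By chromosome, unnamed clusters made up 37.7% (chromosome 7) to 59.0% (chromosome 18) of the clusters of an autosome, 40.4% on X, 53.8% on Y and 63.3% on the mitochondrial genome, the last being 19 of 30 clusters. The chromosome was read from the identifier, and for 30020 of 30114 one-symbol clusters (99.7%) it was that of the symbol. On the deposited scale, more unnamed clusters were called lower than higher in EDL than in TA on all 19 autosomes. The shares were 1.98% (chromosome 19) to 5.5% (chromosome 14) lower and 0.411% (chromosome 3) to 1.74% (chromosome 4) higher. On X the calls were 28 higher (2.04%) and 36 lower (2.63%) of 1371. Over all clusters of the array, 2.22% were called lower and 2.86% higher. With arrays centred on the negative control median the unnamed calls turned, to 13641 higher and 1608 lower, beside 36137 and 1826 of all clusters. Counts by chromosome are not given for that scaling.

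The unnamed Y clusters separated 1 mouse from the rest. Over 300 of them the median log2 signal was 5.54 in EDL M11, 4.68 and 4.65 in the other EDL mice, 4.62, 4.67 and 4.80 in GS and 4.78, 4.83 and 4.62 in TA. In 23 unnamed clusters M11 lay over 1 log2 above all other 8 mice, and of these 22 were Y clusters and 1 was an X cluster, TC0X00002925.mm.1 (7.84, against 5.56 to 6.59). In 16 one-symbol and 5 several-symbol clusters M11 did so too, all of them on Y, where these classes have 124 and 134 clusters. The most marked, TC0Y00000235.mm.1, had 8.71 in M11 and 4.78 to 4.86 in the others, a distance of 3.85 log2. TC0Y00000502.mm.1 had 8.57 in M11 and at most 6.74 in the others. Limma called 1 Y cluster among the unnamed between EDL and TA, lower in EDL (0.333% of 300). Without X and Y clusters the unnamed calls were 284 higher (0.902%) and 1090 lower (3.46%) of 31471. The shares over all clusters of the array were 2.86% higher and 2.22% lower.

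**Figure D5:**
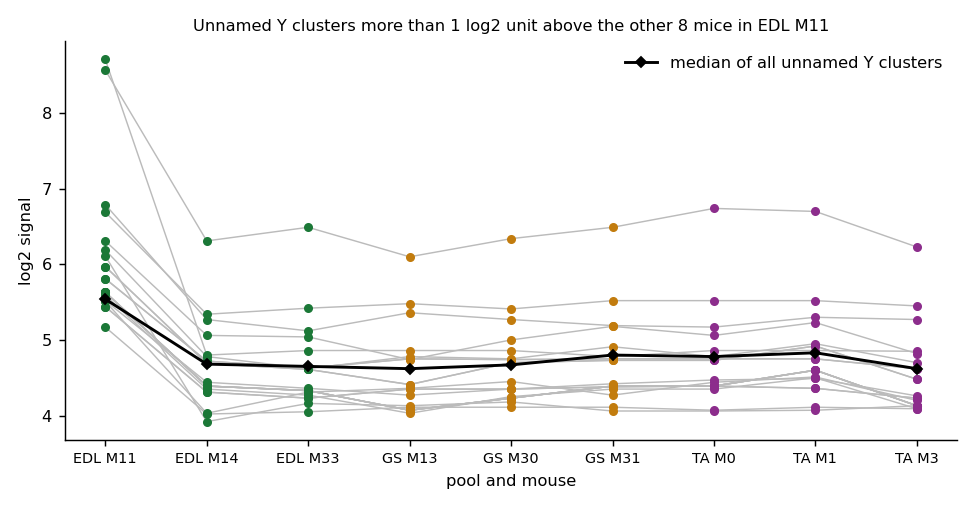
Log2 signal (y axis) in each of 9 mice (x axis) of the 22 unnamed Y clusters in which EDL M11 exceeds the other 8 mice by over 1 log2 (points joined by grey lines, coloured by pool), and the median of all 300 unnamed Y clusters (black diamonds), 5.54 in M11 and at most 4.83 elsewhere.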

How the data were processed

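RNA of laser-captured MNs of 9 mice was measured on 1 array per mouse. The authors deposited log2 values, background-corrected, normalized and summarised over the probes of a cluster (sst-RMA in the methods, RMA and Transcriptome Analysis Console in the submitters' notes). These were used as deposited; such normalization pulls arrays of unlike composition to a common scale. No source used here gives the genome build or the settings. Groups came from the sample labels. Arrays carry no read depth, so their number limits the precision.

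Of 72688 probe sets, 6732 controls were left out. Clusters without a symbol in the platform annotation are the unnamed ones. Differences between pools were fitted in R 4.3.3 by limma 3.58.1 (1 mean per pool, 1 spread for 9 arrays), two-sided, with Benjamini-Hochberg adjustment over 65956 clusters. The fit was tested on simulated data with 1 spread per cluster for all pools. Of 50 clusters changed by 0.5 log2 it recovered 25, and of 50 changed by 1 log2 it recovered 46, with 13 false calls. The simulation left out the wider spread of TA, so it cannot show how the calls hold under that spread. Medians and shares per array were compared by exact permutation over mice. Named clusters are, for TC and TSUnmapped identifiers separately, those with the highest mean (2), the largest differences past the test without overlap between pools (2 per direction and comparison; for EDL minus GS at an unadjusted p) and the widest spread within a pool (2). Alternatives were other scalings, spread estimates, a filter on dim clusters, equal profiles counted once and mice left out. The clusters and the marker lists were chosen with earlier results of these data known.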

Additional observations from a re-analysis of the deposited data

How the results depend on the processing

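Array signal over background limits what the dim clusters can show, and 3 mice per pool with unlike TA mice limit the tests. No paired analysis was possible because no mouse number is shared between pools. The count of unnamed clusters higher in EDL than in TA, 312, became 472 with arrays centred on the median of all clusters, 13641 centred on the negative control median, 547 after quantile normalization, 2 with the spread of the compared pools alone, 50 with the unmoderated test and 174 without TA M0 and M1. The count lower in EDL, 1127, became 1, 110, 553 and 313 with the spread of the compared pools alone, the unmoderated test, only clusters above the negative controls and without TA M0 and M1. Without TA M0 and M1 the lone TA mouse is assumed to vary like the other pools. Leaving out 1 mouse gave 23 to 801 higher and 62 to 4198 lower.

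For GS minus TA, 55 higher became 1931 (negative control centring), 102 (quantile), 0 (spread of the compared pools alone), 1 (unmoderated), 9 (trended robust prior), 172 (clusters above the negative controls) and 23 (without TA M0 and M1), and 0 to 638 without 1 mouse. The split thus turned with negative control centring: the 120 lower became 460, 183, 0, 0, 20, 187 and 27 under the same settings, 65 with array weights, and 0 to 2519 without 1 mouse. For EDL minus GS, leaving out 1 mouse gave 0 to 13 calls.

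Trending clusters higher in EDL, 973, became 2160 (median centring), 14246 (negative control centring), 1857 (quantile) and 241 (clusters above the negative controls), and 817 to 1134 without 1 mouse. Those lower in EDL, 5748, became 1661 (negative control centring), 649 (clusters above the negative controls) and 2895 (without TA M0 and M1), and 3878 to 7205 without 1 mouse.

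The median of unnamed clusters turned to 0.239 (EDL minus TA), 0.177 (GS minus TA) and 0.062 log2 (EDL minus GS) with negative control centring, to 0.004 (GS minus TA) without TA M0 and M1, and to 0.032 (EDL minus GS) in TSUnmapped clusters alone. Its EDL minus TA value of -0.113 shrank to -0.029 with median centring and to -0.044 both after quantile normalization and without TA M0 and M1. Leaving out 1 mouse it ran from -0.147 to -0.095, -0.1 to -0.047 and -0.059 to -0.032. The gap to one-symbol clusters of like signal, weighted over bins, was -0.174, -0.125 and -0.050 log2. This gap is taken within each array, so centring whole arrays cannot change it. Among the settings that could, it turned only in TSUnmapped clusters, to 0.033 (EDL minus GS). The gap shrank without TA M0 and M1 to -0.100 (EDL minus TA) and -0.050 (GS minus TA). Without 1 mouse it ran from -0.212 to -0.143, -0.162 to -0.093 and -0.06 to -0.04. The share above the negative controls, 1.074 (EDL minus TA) and 0.702 percentage points (GS minus TA), became 0.426 and 0.054 without TA M0 and M1, 0.113 and 0.070 at the 99th percentile and 0.000 in TSUnmapped clusters. It differed by 0.89 to 1.398, 0.517 to 1.026 and 0.326 to 0.465 without 1 mouse. For named clusters, 139 repeats kept their side of the threshold, 98 lost it and none turned. The causes were not tested.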
